A study of Mus musculus with 12 samples.

Results

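Levels of 10 genes of the TGF-beta receptor and SMAD system were followed across natural and induced regulatory T cells (Treg). The 10 genes, chosen by name, were Tgfbr1, Tgfbr2, Smad2, Smad3, Smad4, Smad7, Ski, Skil, Smurf1 and Smurf2. They were 10 of 23337 gene symbols counted in each library, and all 10 were among the 12038 genes with enough reads to be tested. RNA came from spleen and lymph nodes of C57BL/6 mice aged 8 weeks, in 4 groups of 3 libraries. Natural Treg (nTreg) were sorted as CD4+ cells carrying the FoxP3-linked GFP, and induced Treg (iTreg) were GFP+ cells isolated after CD4 T cells had been cultured with IL2 and TGFbeta for 5 days. Animals of the WT label were Hrd1 +/flox with FoxP3-cre-GFP, and animals of the KO label were Hrd1 flox/flox with the same FoxP3-cre-GFP. Cre was thus driven by FoxP3 in all 4 groups, the WT label stood for a heterozygous floxed state, and no group lacked a floxed allele. Hrd1, whose counts are listed under Syvn1, marks misfolded proteins of the endoplasmic reticulum with ubiquitin. Whether libraries of a group came from separate mice is not given in the sources used here. The p-values thus cover only variation among these libraries, part of which may be technical.

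TGF-beta binds a type II receptor kinase, TGFBR2, which recruits and phosphorylates the type I receptor kinase, TGFBR1. The type I receptor then phosphorylates SMAD2 and SMAD3, which join SMAD4 and enter the nucleus to regulate genes, including Foxp3 during the induction of Treg. The pathway carries its own brakes: SMAD7 blocks the receptor, the ubiquitin ligases SMURF1 and SMURF2 mark receptors and SMADs for degradation, and SKI and SKIL (SnoN) hold SMAD complexes in a repressed state.

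Promoters of 3 members whose levels differed between both cell types are shown, since both receptors and Smad3 moved in unlike directions. Each window runs from 250 bases before to 50 bases after a RefSeq start (GRCm38.p6) and is written 5′ to 3′ on the gene's strand. Capitals mark 3 motifs that SMAD proteins are known to bind, each searched on both strands and so also marked as its reverse complement. The first is CAGAC. The second is GGCGC. The third is GGCCG, and the latter pair can share letters in GC-rich sequence.
Tgfbr1, chr4:47352972-47353271, plus strand: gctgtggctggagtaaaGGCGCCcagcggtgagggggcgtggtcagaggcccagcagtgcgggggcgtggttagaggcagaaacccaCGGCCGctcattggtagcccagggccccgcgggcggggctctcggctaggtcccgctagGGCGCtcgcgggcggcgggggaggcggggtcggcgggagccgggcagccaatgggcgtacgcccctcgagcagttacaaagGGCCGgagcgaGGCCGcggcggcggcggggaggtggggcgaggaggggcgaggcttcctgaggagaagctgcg
Tgfbr2, chr9:116175314-116175613, minus strand: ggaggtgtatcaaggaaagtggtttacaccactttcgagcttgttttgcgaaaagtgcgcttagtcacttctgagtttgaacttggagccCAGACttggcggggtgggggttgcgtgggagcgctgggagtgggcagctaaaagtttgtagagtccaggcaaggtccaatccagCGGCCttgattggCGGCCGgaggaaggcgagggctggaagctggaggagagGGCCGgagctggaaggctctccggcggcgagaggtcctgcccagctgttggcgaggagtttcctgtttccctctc
Smad3, chr9:63757945-63758244, minus strand: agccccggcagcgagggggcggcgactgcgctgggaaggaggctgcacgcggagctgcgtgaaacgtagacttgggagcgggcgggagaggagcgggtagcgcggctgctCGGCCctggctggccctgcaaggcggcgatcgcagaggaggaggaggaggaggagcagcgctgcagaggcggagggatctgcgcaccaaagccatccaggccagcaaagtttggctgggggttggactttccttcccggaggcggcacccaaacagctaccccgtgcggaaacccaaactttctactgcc
The Tgfbr1 window shown held 0 CAGAC, 3 GGCGC and 4 GGCCG matches, and 74.7% of its bases were G or C. RefSeq gives a second Tgfbr1 start, whose window (chr4:47385966-47386265) held 1 CAGAC, 0 GGCGC and 0 GGCCG matches, with 52.0% G or C. The Tgfbr2 window held 1 CAGAC, 0 GGCGC and 4 GGCCG matches. The Smad3 window held 0 CAGAC, 0 GGCGC and 1 GGCCG match. Of 32851 promoter windows of the same length, 49.6% held CAGAC, 36.9% held GGCGC and 35.2% held GGCCG, so these matches are common. A match is a description of these letters, not a binding site.

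Total counts ranged from 6763458 to 15462894 per library, and levels are given as CPM, reads of a gene scaled to a common library size, with TMM scaling. Syvn1 did not check the label, since its counts cover the whole gene: it ran from 130 to 146 CPM in KO-labelled nTreg and from 73.7 to 87.2 CPM in WT-labelled nTreg. In iTreg, Syvn1 ran from 54.6 to 73.1 CPM with the KO label and from 61.6 to 101 CPM with the WT label, which overlap. Summed CPM of 8 CD4 T cell and Treg markers lay between 4327 and 5511 in all 12 libraries. Single markers in that sum moved in unlike directions between the WT-labelled groups. Il2ra was at 794 to 863 CPM in nTreg WT and at 3014 to 3311 CPM in iTreg WT. Ikzf2 was at 931 to 1274 and 21.8 to 30.8 CPM in these groups, and Foxp3 at 583 to 666 and 306 to 393 CPM. Cd3e, Cd3d, Cd4 and Ctla4 were also lower in iTreg WT, and Tnfrsf18 overlapped. Summed CPM of 11 macrophage and monocyte markers reached 92.8 to 363 in nTreg WT and 72.8 to 844 in nTreg KO, highest in both libraries numbered 2, but 7.05 to 18.8 in iTreg WT and 10.1 to 23.4 in iTreg KO, where Lyz2, C1qa, C1qc, Fcgr1 and Mertk were at 0. The 6 B cell markers summed to 28.1 to 33.7 CPM in nTreg WT, 16.5 to 17.2 in nTreg KO and at most 3.01 in iTreg. Xist, an RNA of female cells, lay between 483 and 2027 CPM in 3 libraries (both nTreg libraries numbered 3 and iTreg WT number 2) and at or below 0.232 CPM in the other 9. Libraries within nTreg WT, nTreg KO and iTreg WT were thus not all from the same animals.

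Between iTreg and nTreg, 8 of the 10 genes differed in WT-labelled cells. Tgfbr1 and Skil were higher in iTreg, Tgfbr2, Smad2, Smad3, Smad4, Smad7 and Smurf2 were lower, and Ski and Smurf1 did not pass the test (edgeR quasi-likelihood test over all 12038 genes, Benjamini-Hochberg adjusted p under 0.05). The background is high: 65.2% of all tested genes passed, 34.8% as higher and 30.4% as lower. The libraries of both groups did not overlap for 8 members, against 71.3% of all genes. The members' median log2 fold change was -0.51, and that of all tested genes was 0.05. In KO-labelled cells 9 members passed, 3 higher (Tgfbr1, Skil and Smurf1) and 6 lower. There the background was 61.9%, with 32.1% higher and 29.8% lower, and 7 members did not overlap against 66.9% of all genes. Cell origin, culture, IL2 and TGFbeta all differ between iTreg and nTreg and cannot be told apart. In bulk RNA, fewer cells of a type and less RNA per cell cannot be told apart either.

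**Figure D1:**
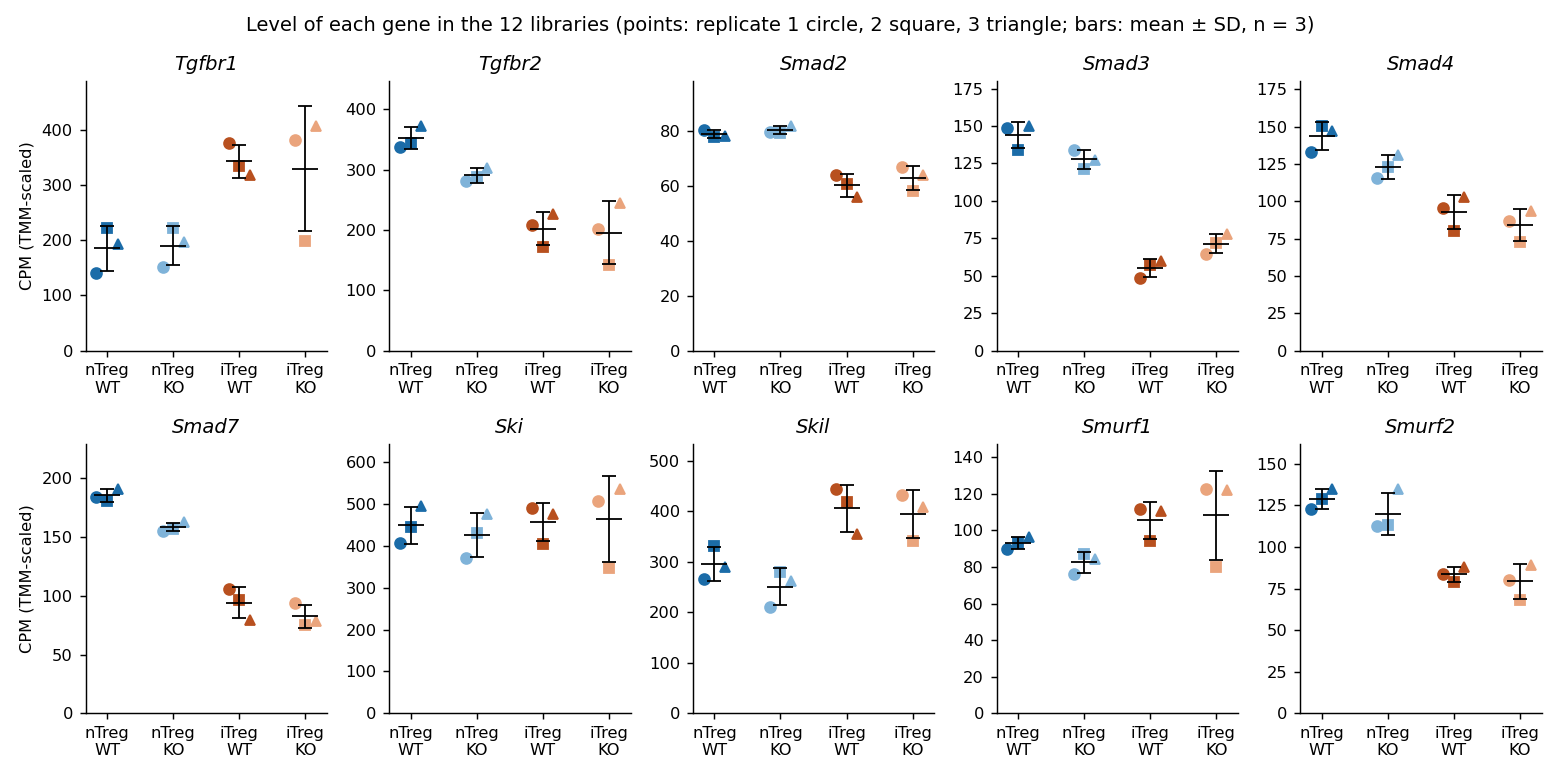
CPM (TMM-scaled, linear axis from 0) of the 10 genes in each of the 12 libraries, by group; points are libraries (replicate 1 circle, 2 square, 3 triangle), and bars are mean ± SD (n = 3). Smad3 falls from 134 to 150 CPM in nTreg WT to 48.2 to 59.7 in iTreg WT, while Tgfbr1 goes the other way.

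The receptors moved in opposite directions. Tgfbr1, the type I receptor kinase, was at 141, 221 and 194 CPM in nTreg WT and at 376, 334 and 319 CPM in iTreg WT, with no overlap. This was a 1.85-fold higher level (log2 fold change 0.89, SE 0.25, adjusted p = 0.0073 by edgeR). KO-labelled libraries had 152, 222 and 196 CPM in nTreg and 382, 200 and 407 CPM in iTreg. Their groups overlapped, because iTreg KO number 2 lay below nTreg KO number 2. The fold change was 1.73 (log2 0.79, SE 0.25, adjusted p = 0.014). Its call was lost without nTreg KO number 1 (log2 0.65, adjusted p = 0.063), iTreg KO number 1 (0.67, 0.058) or iTreg KO number 3 (0.61, 0.065). Without the 3 libraries with Xist, the WT-labelled value was 0.94 (adjusted p = 0.060) and the KO-labelled value 0.81 (0.071).

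Tgfbr2, the type II receptor kinase that binds the ligand, was at 338, 345 and 372 CPM in nTreg WT against 209, 172 and 226 CPM in iTreg WT. All 3 iTreg libraries lay below all 3 nTreg libraries, 1.74-fold lower in the means (log2 -0.80, SE 0.17, adjusted p = 0.0012 by edgeR). In KO-labelled cells it was at 280, 287 and 303 CPM in nTreg and 202, 141 and 244 CPM in iTreg, again without overlap (1.48-fold lower, log2 -0.57, SE 0.17, adjusted p = 0.011). Without iTreg KO number 2 the latter was -0.38 (adjusted p = 0.024). The ratio of Tgfbr1 to Tgfbr2 CPM in a library, a measure within each library that still carries both genes' lengths, was 0.527 ± 0.113 (SD, n = 3) in nTreg WT and 0.655 ± 0.115 in nTreg KO. In iTreg the ratio was 1.72 ± 0.275 (WT) and 1.66 ± 0.241 (KO). No nTreg library exceeded 0.774 and no iTreg library lay under 1.41.

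Of the receptor-regulated SMADs, which carry the signal from the receptor, Smad3 had the larger change. Smad3 was at 148, 134 and 150 CPM in nTreg WT and at 48.2, 57.3 and 59.7 CPM in iTreg WT. The iTreg level was 2.62-fold lower (log2 -1.39, SE 0.11, adjusted p = 5.06e-07 by edgeR), with a wide gap between the groups. With the KO label, it was at 134, 122 and 127 CPM in nTreg and 64.8, 72.1 and 77.6 CPM in iTreg, which was 1.78-fold lower (log2 -0.83, SE 0.11, adjusted p = 3.23e-05). Both Smad3 calls held in all 24 alternative analyses, between -1.50 and -1.30 (WT) and between -0.91 and -0.77 (KO).

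Smad2, its close relative, moved much less and was the most even gene across replicates in nTreg. It was at 80.6, 78.1 and 78.4 CPM in nTreg WT and at 64.3, 60.7 and 56.0 CPM in iTreg WT. The decrease was 1.31-fold (log2 -0.39, SE 0.088, adjusted p = 0.0019 by edgeR). In KO-labelled cells the values were 80.0, 79.5 and 82.0 CPM in nTreg and 66.9, 58.2 and 64.0 CPM in iTreg (1.28-fold lower, log2 -0.35, adjusted p = 0.0039). The Smad3 to Smad2 ratio of CPM lay at 1.82 ± 0.0995 (SD, n = 3) in nTreg WT and 1.59 ± 0.0804 in nTreg KO. It was 0.920 ± 0.159 in iTreg WT and 1.14 ± 0.149 in iTreg KO.

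Smad4, the partner shared by all signalling SMADs, was at 133, 150 and 147 CPM in nTreg WT and at 95.5, 80.3 and 103 CPM in iTreg WT. This was 1.54-fold lower (log2 -0.63, SE 0.12, adjusted p = 6.16e-04 by edgeR). The KO-labelled libraries had 115, 123 and 131 CPM in nTreg and 86.9, 72.5 and 93.5 CPM in iTreg (1.46-fold lower, log2 -0.54, adjusted p = 0.0018). Neither comparison had overlapping groups. Smad7, the inhibitory SMAD that TGF-beta is known to induce, was lower in the cells cultured with TGFbeta. Its values were 184, 180 and 191 CPM in nTreg WT and 106, 96.7 and 79.5 CPM in iTreg WT, 1.97-fold lower (log2 -0.98, SE 0.12, adjusted p = 1.53e-05). KO-labelled nTreg had 155, 157 and 162 CPM and KO-labelled iTreg 93.5, 75.1 and 78.8 CPM (1.92-fold lower, log2 -0.94, adjusted p = 2.53e-05). The iTreg were taken on day 5, and other times were not analysed here.

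The corepressors parted. Ski, which holds SMAD complexes inactive, had 407, 445 and 494 CPM in nTreg WT and 491, 404 and 476 CPM in iTreg WT. These overlap almost fully, and the log2 fold change was 0.03 (95% interval -0.32 to 0.38). KO-labelled libraries gave 372, 430 and 477 CPM in nTreg and 508, 346 and 536 CPM in iTreg (log2 0.12, interval -0.23 to 0.47). Skil, its relative that TGF-beta is also known to induce, was at 266, 332 and 291 CPM in nTreg WT and at 445, 418 and 355 CPM in iTreg WT. The iTreg libraries lay above the nTreg libraries, 1.37-fold higher (log2 0.46, SE 0.14, adjusted p = 0.013 by edgeR). This call was lost without nTreg WT number 1 (0.38, adjusted p = 0.059), iTreg WT number 1 (0.39, 0.053) or the 3 libraries with Xist (0.42, 0.117). KO-labelled Skil rose from 210, 281 and 262 CPM in nTreg to 434, 342 and 410 CPM in iTreg (1.57-fold, log2 0.65, SE 0.14, adjusted p = 0.0017), and that call held in all 24 alternatives. The Skil to Smad7 ratio of CPM, of 2 genes known as TGF-beta targets, was 1.60 ± 0.213 (SD, n = 3) in nTreg WT and 1.59 ± 0.220 in nTreg KO. It was 4.33 ± 0.136 in iTreg WT and 4.80 ± 0.348 in iTreg KO.

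The SMURF ubiquitin ligases also parted. Smurf2 was at 123, 128 and 135 CPM in nTreg WT and at 83.9, 78.7 and 87.8 CPM in iTreg WT, 1.54-fold lower (log2 -0.63, SE 0.11, adjusted p = 4.10e-04 by edgeR). With the KO label it had 112, 113 and 135 CPM in nTreg and 80.3, 68.2 and 89.3 CPM in iTreg (1.51-fold lower, log2 -0.60, adjusted p = 6.70e-04). Neither pair of groups overlapped. Smurf1 was at 90.0, 93.0 and 96.6 CPM in nTreg WT and at 112, 94.1 and 111 CPM in iTreg WT (log2 0.18, 95% interval -0.14 to 0.50, adjusted p = 0.300). In KO-labelled cells it had 76.2, 87.3 and 84.2 CPM in nTreg and 123, 80.1 and 122 CPM in iTreg, where number 2 overlapped nTreg. That difference passed narrowly (log2 0.39, SE 0.15, adjusted p = 0.035) and was lost in 10 of 24 alternatives, among them library totals without a scaling factor (0.36, 0.054) and the omission of any 1 of nTreg KO number 1 (0.34, 0.111), number 2 (0.43, 0.055), number 3 (0.40, 0.070), iTreg KO number 1 (0.29, 0.138) or iTreg KO number 3 (0.29, 0.127). The Smurf1 to Smurf2 ratio of CPM was 0.724 ± 0.00875 (SD, n = 3) in nTreg WT, 0.692 ± 0.0747 in nTreg KO, 1.26 ± 0.0696 in iTreg WT and 1.36 ± 0.179 in iTreg KO.

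**Figure D2:**
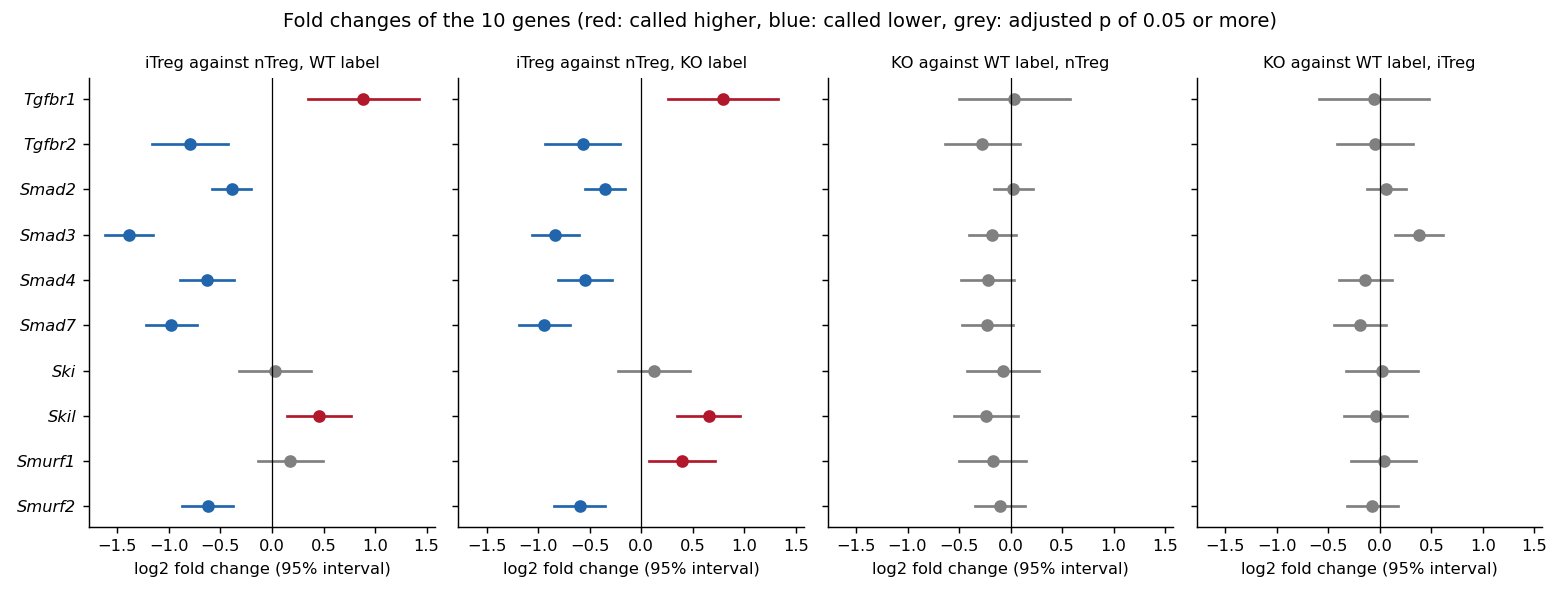
Log2 fold change with its 95% interval for the 10 genes (rows) in 4 comparisons (panels); red passed the test as higher, blue as lower, and grey had an adjusted p of 0.05 or more. The left 2 panels hold 8 and 9 coloured genes, and both KO-label panels hold none.

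Macrophage and B cell transcripts, which were higher in nTreg, moved with these differences. Without both nTreg libraries numbered 2, which had the highest macrophage sums, only the KO-labelled call of Smurf1 was lost among members. The nTreg libraries left still had sums of 72.8 to 180 CPM, against 7.05 to 23.4 CPM in iTreg. This omission therefore did not remove the difference in macrophage transcripts. Within nTreg the macrophage sums were 92.8, 363 and 180 CPM in WT numbers 1, 2 and 3 and 72.8, 844 and 160 CPM in KO numbers 1, 2 and 3. Tgfbr1 (141, 221 and 194 CPM, then 152, 222 and 196 CPM) and Skil had the same order as these sums with both labels, being highest in number 2 and lowest in number 1. Smad3 was lowest in number 2 with both labels, and Smad7 was at 155, 157 and 162 CPM in the KO-labelled libraries. The part of macrophage and B cell transcripts in the members' levels was not tested.

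Ordered per exon length, to allow comparison between genes, Ski was the most abundant of the 10 in every group, at 80.6 ± 7.84 CPM per kb (SD, n = 3) in nTreg WT and 82.2 ± 8.28 in iTreg WT. Smad2 had the lowest level per kb in every group, at 9.01 ± 0.156 in nTreg WT and 6.87 ± 0.472 in iTreg WT. In nTreg WT, Tgfbr2 (42.9 ± 2.21 CPM per kb), Smad7 (40.9 ± 1.19) and Smad4 (38.7 ± 2.54) followed Ski, and these 3 neighbours lay within about 1 SD of the next. Skil (30.6 ± 3.49), Tgfbr1 (28.4 ± 6.26) and Smad3 (26.0 ± 1.59) formed the next stretch, with overlapping spreads. Smurf2 (20.9 ± 0.996) and Smurf1 (14.7 ± 0.524) came before Smad2. In iTreg WT the order differed: Tgfbr1 came next after Ski at 52.5 ± 4.56 CPM per kb, and Skil followed at 41.9 ± 4.75. Smad4 (25.0 ± 3.12), Tgfbr2 (24.7 ± 3.36) and Smad7 (20.8 ± 2.98) had overlapping spreads, and Smad3, at 9.94 ± 1.09, stood just above Smad2. With the longest transcript in place of all exons as the length, Skil would follow Ski directly in nTreg WT and in iTreg WT.

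**Figure D3:**
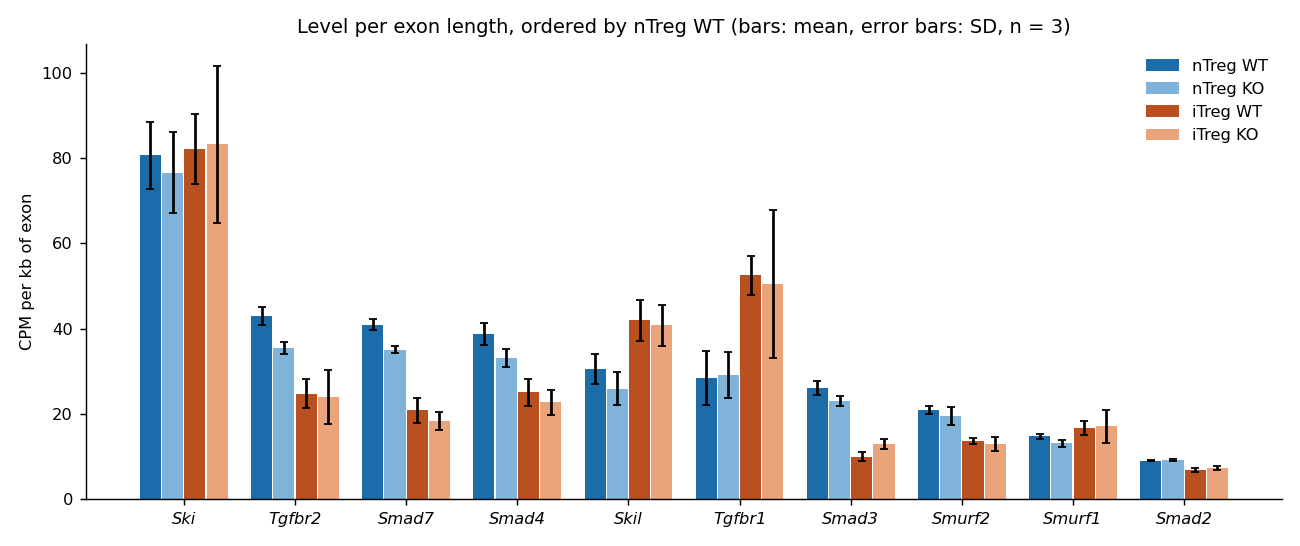
Mean CPM per kb of exon (linear axis from 0) of the 10 genes in the 4 groups, with SD (n = 3), ordered by nTreg WT. Ski leads in all groups, Tgfbr1 and Skil stand higher in iTreg, and Smad2 is last.

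Across the 4 group means of log2 CPM, Smad3 had the widest range of the 10 (1.39), then Smad7 (1.17) and Tgfbr1 (0.91). Ski had the narrowest (0.10), and the median over all tested genes was 0.84. Among members, Smad4 and Smurf2 had the most similar profile over the 12 libraries, with a mean absolute difference of 0.06 between their centred log2 CPM values. Tgfbr1 and Smad3 were the least alike at 0.97. Outside the set, the genes closest to Smad3 were Parp10 (0.09), Etv3 (0.10) and Gtdc1 (0.11). Among the closest to Smad7 were Lrba (0.07) and Ccpg1 (0.08), and closest to Tgfbr1 were Zdhhc21 (0.11), Ammecr1 (0.11) and Fnip1 (0.12). The median distance of all genes was 0.65 from Smad3, 0.59 from Smad7 and 0.56 from Tgfbr1. These distances describe libraries that share a cell type difference and depth.

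Replicate spread was itself uneven. iTreg KO number 2 had the lowest level of its group for 9 of the 10 members, all but Smad3, and 39.8% of all tested genes were lowest there. Foxp3 was at 392, 191 and 375 CPM in iTreg KO numbers 1, 2 and 3, and Il2ra was also lowest in number 2. Of the other CD4 T cell and Treg markers, Cd3e, Cd3d, Ctla4, Ikzf2 and Tnfrsf18 were highest in number 2, and Cd4 lay between. How far this library differed in cell state was not tested. Tgfbr1 had the largest coefficient of variation, 34.4% in iTreg KO, and Smad2 in nTreg KO the smallest, 1.65%. In nTreg, number 1 was lowest for 7 members with the WT label and for 8 with the KO label, against 35.3% and 37.7% of all genes.

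The KO label in nTreg changed none of the 10 genes past the test, where 2.53% of all genes passed (edgeR). The smallest adjusted p was 0.418 (Smad7), 0 members had an unadjusted p under 0.05, and DESeq2 and limma voom also called 0. Members' libraries did not overlap for Tgfbr2, Smad4, Smad7 and Smurf1, all lower with the KO label, that is for 4 of 10 against 29.8% of all genes. WT- and KO-labelled libraries of the same replicate number were taken as pairs within a cell type. The labels do not state a pairing, and it was taken from correlated deviations in these counts (0.438 to 0.572 in nTreg and 0.307 to 0.629 in iTreg). In nTreg, 8 of 10 members were lower in the KO-labelled library of all 3 pairs, against 28.0% of all genes. Tgfbr1 was higher in all 3 pairs (28.9% of all genes were), by 0.11, 0.00 and 0.02 on the log2 scale, and Smad2 had mixed signs. With the replicate number as a block, 0 members passed and 9.0% of all genes did. In that blocked edgeR fit, 5 of the 10 members had an unadjusted p under 0.05. The share of all genes at that unadjusted threshold with the block is not given here, so this count has no background beside it.

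Tgfbr2 had the largest fitted nTreg difference of the 10. It was lower by -0.27, -0.26 and -0.29 (log2 CPM, KO minus WT) in pairs 1, 2 and 3. Its fitted log2 fold change was -0.28 (95% interval -0.64 to 0.09, adjusted p = 0.517, with the block 0.068). In a fit of the 6 nTreg libraries alone it passed (-0.27, adjusted p = 0.041), as did 10.2% of all genes. Smad7 had pair values of -0.25, -0.20 and -0.23 (fitted -0.23, interval -0.48 to 0.02, blocked adjusted p = 0.113). Smad4 had pair values of -0.20, -0.29 and -0.17 (fitted -0.22, interval -0.48 to 0.04, blocked adjusted p = 0.075). Skil gave -0.34, -0.24 and -0.15 (fitted -0.24, interval -0.55 to 0.07). Smad3 (fitted -0.18), Smurf1 (-0.17), Smurf2 (-0.10), Ski (-0.07), Tgfbr1 (0.04) and Smad2 (0.03) lay nearer to 0, and all 10 intervals included 0. Summed macrophage markers in the same pairs were 92.8 and 72.8 CPM, 363 and 844 CPM, and 180 and 160 CPM (WT, then KO), lower, higher and lower with the KO label. B cell markers were lower in all 3 KO-labelled nTreg libraries. Summed plasma cell markers were at 102 to 131 CPM against 39.4 to 62.9 CPM. Of these, Derl3, a component of endoplasmic reticulum-associated degradation, was at 66.7 to 94.5 CPM against 1.02 to 2.12 CPM, while Prdm1 was at 26.7 to 34.0 CPM against 32.9 to 42.2 CPM. Igj was at 16.7, 0.819 and 1.29 CPM with the KO label against 27.9, 0.991 and 1.40 CPM with the WT label. Sdc1 and Tnfrsf17 were at most at 0.811 CPM in these libraries. The part of these cell types in the differences was not tested.

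In iTreg the KO label also called 0 of the 10 (0.183% of all genes passed; DESeq2 and limma voom called 0 members). Smad3 came closest, the only member with an unadjusted p under 0.05. Its 3 KO-labelled libraries (64.8 to 77.6 CPM) lay above its 3 WT-labelled libraries (48.2 to 59.7 CPM), 1.30-fold in the means (log2 0.38, SE 0.11, unadjusted p = 0.0039, adjusted p = 0.351 by edgeR). Of 10 members it was the 1 without overlap, against 9.63% of all genes. Its pair differences were 0.42, 0.33 and 0.38, and it was the only 1 of the 10 that was higher in all 3 iTreg pairs, as 14.1% of all genes were. With the replicate block Smad3 passed (0.38, SE 0.07, adjusted p = 0.042), and so did 0.947% of all genes. That block rests on pairs taken from the data, and the iTreg pair numbered 2 was unlike in Xist (2027 CPM with the WT label, 0 CPM with the KO label).

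Smad4 and Smad7 were lower in all 3 iTreg pairs, which 18.6% of all genes were. Smad4 gave pair values of -0.13, -0.15 and -0.14 (fitted -0.14, 95% interval -0.40 to 0.12), and Smad7 gave -0.18, -0.36 and -0.01 (fitted -0.19, interval -0.44 to 0.06). Tgfbr1 varied most between pairs, at 0.02, -0.74 and 0.35. In that gene and 6 others of the 10 the pair numbered 3 was above 0 and the pair numbered 2 below 0, so the fitted values near 0 average unlike pairs. Fitted log2 fold changes were -0.06 for Tgfbr1, -0.05 for Tgfbr2, 0.06 for Smad2, 0.02 for Ski, -0.04 for Skil, 0.04 for Smurf1 and -0.07 for Smurf2.

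**Figure D4:**
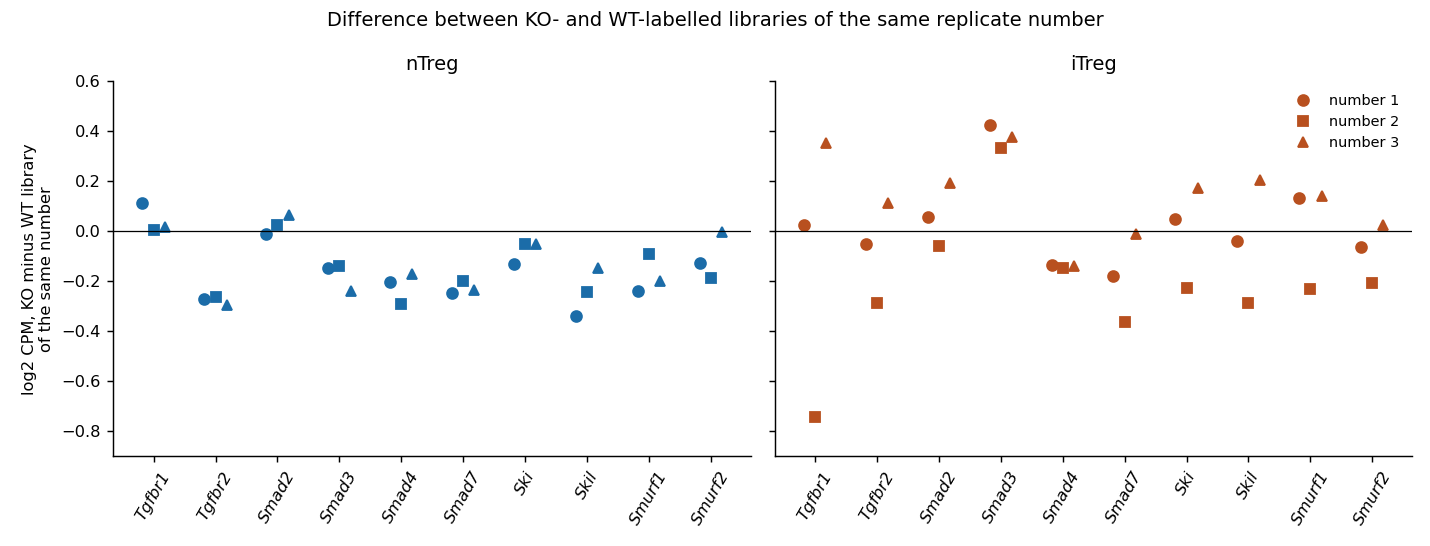
Log2 CPM of the KO-labelled minus the WT-labelled library of the same replicate number, for each gene, in nTreg (left) and iTreg (right); each point is 1 pair. Smad3 lies between -0.24 and -0.14 in nTreg and between 0.33 and 0.42 in iTreg, and Tgfbr1 spans -0.74 to 0.35 in iTreg.

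Whether the KO label acted differently in both cell types was tested as the iTreg effect minus the nTreg effect. None of the 10 passed, against 0.291% of all genes. Smad3 had the smallest p among members: its KO effect was -0.18 in nTreg and 0.38 in iTreg, a difference of 0.55 (SE 0.15, unadjusted p = 0.0029, adjusted p = 0.233 by edgeR). All 3 nTreg pairs were below 0 and all 3 iTreg pairs above 0, a pattern that 2.0% of all genes had. The difference passed with the replicate block (0.55, SE 0.10, adjusted p = 0.028, when 1.80% of all genes passed) and with DESeq2 (0.59, adjusted p = 0.034, 1.16% of all genes). It is the same quantity as the gap between the iTreg to nTreg changes of Smad3 in KO-labelled (-0.83) and WT-labelled cells (-1.39), and these comparisons share their libraries. For the other 9 members the difference lay between -0.09 (Tgfbr1) and 0.23 (Tgfbr2), with adjusted p of at least 0.951. Power was low in simulated data with few changed genes, drawn at all levels: 1.49% of 1.5-fold differences were recovered, and 26.9% of 2-fold differences.

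Other genes of the pathway were followed in 7 lists with 86 tested genes. In the iTreg to nTreg comparison they moved in both directions, and each list was read against the 34.8% higher and 30.4% lower among all genes with the WT label. Of 11 tested ligands and activators, 5 were higher and 2 lower in iTreg with either label. Tgfb1, the ligand, was at 248, 225 and 245 CPM in nTreg WT and 424, 457 and 354 CPM in iTreg WT (log2 0.78, SE 0.13, adjusted p = 2.19e-04 by edgeR). Furin, a protease that processes the ligand precursor, rose by 1.96. Lrrc32 (GARP), which anchors latent TGF-beta on Treg, fell by 2.10, from 379, 557 and 424 CPM to 114, 84.4 and 119 CPM. Itgb8, an integrin chain that activates latent TGF-beta, fell by 5.36, from 25.0, 26.7 and 21.9 CPM to 0.750, 0.301 and 0.723 CPM. KO-labelled values were 0.75 (Tgfb1), 1.90 (Furin), -2.59 (Lrrc32) and -5.57 (Itgb8). Without the 3 libraries with Xist, 4 in place of 7 genes of this list passed with the WT label.

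**Figure D5:**
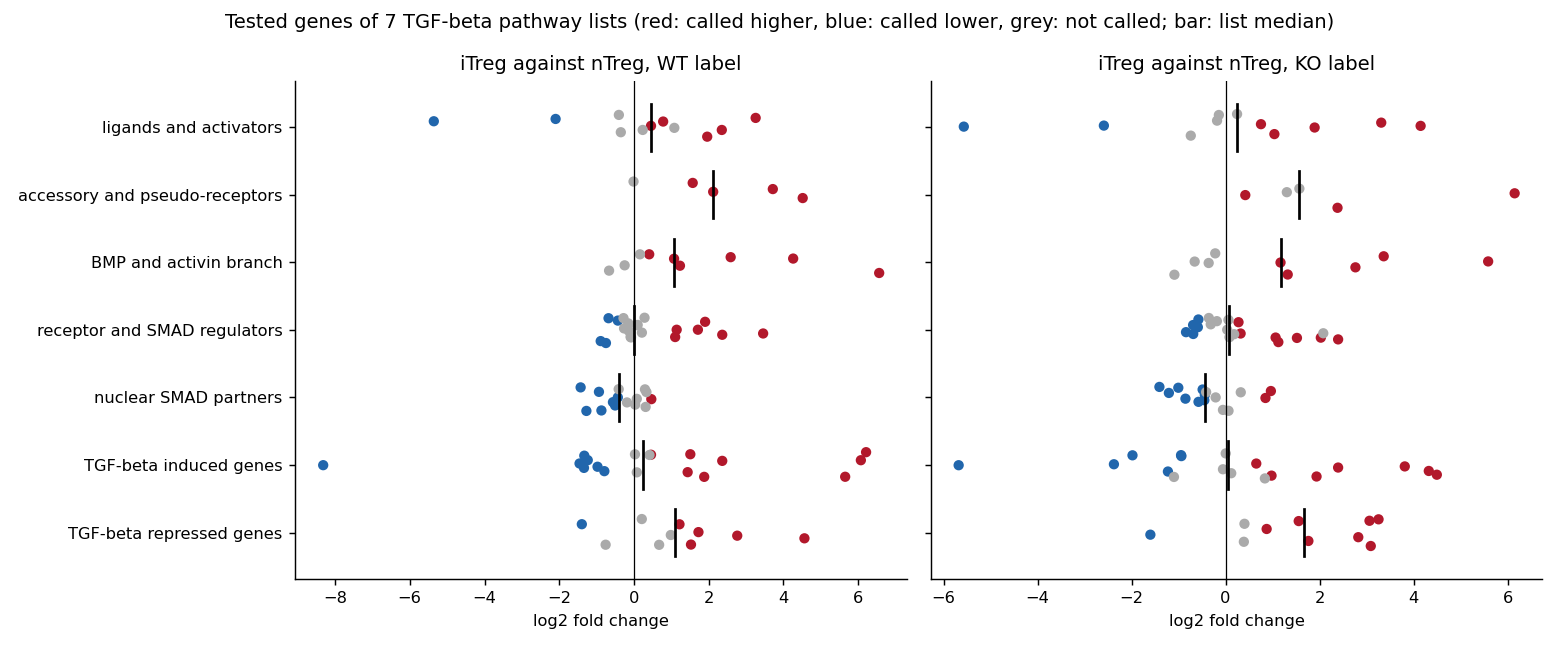
Log2 fold change (iTreg against nTreg) of each tested gene of the 7 lists (rows), with the WT label (left) and KO label (right); red passed as higher, blue as lower, grey did not pass, and bars are list medians. Points lie on both sides of 0 in most lists, while no gene passed as lower in the accessory receptor list or the BMP and activin list.

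Acvr1, Bmpr1a, Bmpr2 and Acvr2a, receptors of the neighbouring branches, were higher in iTreg from low levels, but not every receptor was. With the KO label, mean CPM was lower in iTreg than in nTreg for Acvr1b (54.2 against 63.1) and Acvr1c (5.83 against 12.5). With the WT label, both means were higher in iTreg (64.9 against 48.9 and 6.38 against 5.66). Of 9 tested genes of the BMP and activin branch 6 were higher with the WT label and 5 with the KO label, and 0 were lower. Acvr1, a type I receptor, was at 0.886, 1.84 and 1.77 CPM in nTreg WT and 32.9, 37.6 and 17.8 CPM in iTreg WT (log2 4.26, SE 0.36, adjusted p = 9.42e-07 by edgeR). Bmpr1a, a BMP type I receptor, rose by 2.59, Bmpr2, a BMP type II receptor, by 1.23, and Acvr2a, an activin type II receptor, by 1.07. Smad6, the inhibitory SMAD of the BMP branch, had 1 read in all nTreg WT libraries together and 188 reads in iTreg WT, and 2 against 109 reads with the KO label. Smad6 thus rose while Smad7 fell. Of 5 tested accessory receptors 4 were higher with the WT label and 3 with the KO label, and 0 were lower. Eng, a coreceptor, was at 0.591, 1.41 and 0.465 CPM in nTreg WT and 19.0, 21.2 and 14.9 CPM in iTreg WT (log2 4.52, SE 0.55, adjusted p = 1.91e-05). The count of 4 fell to 2 without nTreg WT number 2, nTreg WT number 3, iTreg WT number 1 or iTreg WT number 2, and to 1 without the 3 libraries with Xist.

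Among 20 tested regulators of receptors and SMADs, 6 were higher and 4 lower with the WT label, and 7 and 5 with the KO label. Pmepa1, a TGF-beta target that restrains SMAD signalling, was at 42.8, 45.9 and 43.3 CPM in nTreg WT and 237, 238 and 203 CPM in iTreg WT (log2 2.36, SE 0.10, adjusted p = 1.45e-08 by edgeR). Fkbp1a, which binds the resting type I receptor, rose by 1.90. Traf6 and Map3k7, of the SMAD-independent arm of the pathway, rose by 1.71 and 1.14, and Strap, a binding partner of SMAD7, by 1.10. KO-labelled values of Pmepa1, Fkbp1a, Traf6, Map3k7 and Strap were 2.39, 2.03, 1.52, 1.12 and 1.06. Of 15 tested nuclear partners of SMADs, 1 was higher and 7 lower with the WT label, and 2 and 8 with the KO label. Ets1, a transcription factor, fell by 1.43 from 2510, 2408 and 2863 CPM to 879, 824 and 1189 CPM. The coactivators Crebbp and Ep300 fell by 1.27 and 0.94, and Foxo1, a transcription factor needed for Treg function, fell by 0.87. The list median was -0.41 (WT) and -0.44 (KO), against 0.05 and 0.01 for all genes. Without the 3 libraries with Xist, 5 in place of 8 passed with the WT label.

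Known TGF-beta targets moved both ways. Of 18 tested induced genes, a list that holds Smad7, Skil and Ski themselves, 8 were higher and 7 lower with the WT label, and 7 and 6 with the KO label. Besides Pmepa1, Spsb1 (log2 1.44), Klf10 (1.51) and Cdkn1a (6.21, from 2.36, 1.98 and 2.70 CPM to 148, 326 and 57.7 CPM) were higher, and Smad7 was among the lower ones. Without the 3 libraries with Xist 9 in place of 15 passed. Of 10 tested genes that TGF-beta is known to repress, 5 were higher and 1 lower with the WT label, and 7 and 1 with the KO label. Myc, a driver of growth, rose by 1.22, Tbx21, the master factor of Th1 cells, by 1.73, Gzmb, a cytotoxic protease, by 1.53, and Id1, an inhibitor of DNA-binding factors, by 4.56. Id3, of the same family, fell by 1.40. Their KO-labelled values were 0.87 (Myc), 3.09 (Tbx21), 1.56 (Gzmb), 3.06 (Id1) and -1.60 (Id3).

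For the KO label, 0 of the 86 list genes passed in nTreg, in iTreg or for the difference (edgeR). At an unadjusted p under 0.05 there were 18, 7 and 10 of the 86, against 13.4%, 7.56% and 7.44% of all genes. In nTreg, DESeq2 called 3 of the 86 and 496 of all genes, and limma voom called 8 of the 86 and 1068 of all genes. In iTreg, DESeq2 called 1 of the 86 and 99 of all genes, and limma voom called 0 of the 86. Both tools called 0 of the 86 for the difference. With the replicate block, 13 of 86 passed in nTreg, against 9.0% of all genes. Among these, named here after their values were seen, were Itgav (-0.49, adjusted p = 0.0063), Itgb8 (-0.81, 0.033) and Lrrc32 (0.34, 0.039), all of which act on latent TGF-beta. Cdkn1a (1.77, adjusted p = 0.0031), Foxo1 (-0.35, 0.037) and Ep300 (-0.34, 0.029) were others. In iTreg, 1 of 86 passed with the block, Tbx21 (1.34, adjusted p = 0.0033), against 0.947% of all genes, and 5 of 86 did so for the difference, against 1.80%.

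By position in mm10 (GENCODE M21), each of the 10 is a protein-coding gene, and counts cover its exons. Tgfbr1 lies at chr4:47353222-47414931 (plus strand) and Ski at chr4:155154075-155222592 (minus). Tgfbr2 lies at chr9:116084293-116175360 (minus) and Smad3 at chr9:63646767-63757994 (minus), while Skil lies at chr3:31095058-31122577 (plus). Smurf1 lies at chr5:144876495-144965847 (minus) and Smurf2 at chr11:106820066-106920715 (minus). Smad2, Smad4 and Smad7 share chromosome 18, at 76241580-76310963 (plus), 73639009-73703780 (minus) and 75367529-75395935 (plus). The only overlap of exons with another gene was 58 bases shared by Smurf2 and the microRNA gene Gm27322.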

How the data were processed

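The authors deposited 1 file of raw counts per gene symbol for each of the 12 libraries, with 23337 symbols in each. Per the submitters' processing notes, cutadapt 1.13, STAR, HTSeq 0.6.1p1, DESeq2 and the build mm10 were used; their roles and order, the annotation and the strand setting are not given in the sources used here. No column was left unmapped to a sample (0). Counts were fitted with edgeR 4.0.16 (R 4.3.3, limma 3.58.1) by its quasi-likelihood test, with TMM scaling, robust dispersion and 1 term per group (8 residual degrees of freedom), after a filter with a minimum count of 10, which kept 12038 genes. P-values were adjusted by Benjamini-Hochberg over all of them, and a call needs an adjusted p under 0.05. Fold changes are log2.

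The 10 members and the 7 lists were chosen with earlier results of these data known. All members are named in every comparison, and from each list up to 5 genes of smallest p that passed. For the 3 members with the widest range of group means, the 3 genes of most similar centred log2 CPM are named (predicted genes left out), except 1 that is not reported here.

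Replicate numbers were checked as pairs: deviations from group means correlated at 0.438 to 0.572 between WT- and KO-labelled nTreg of the same number and at 0.307 to 0.629 in iTreg, but at -0.054 to 0.095 between nTreg and iTreg of the same label. The replicate number was therefore used as a block within each cell type, as an alternative for the KO comparisons and their difference. The iTreg pair numbered 2 was unlike in Xist (2027 CPM with the WT label, 0 CPM with the KO label). For iTreg against nTreg, the block was instead the replicate number shared across cell types, where deviations showed no such pairing.

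Alternatives were RLE factors or totals alone, no filter or a stricter one (a CPM of 5 in 3 libraries), limma voom, DESeq2 1.42.0, the block, the compared libraries alone, left-out libraries and thinning. On simulated data over 12038 genes, 2-fold changes were recovered for 59.7% of genes for the KO label in nTreg and 59.7% in iTreg, 26.9% for the difference, and 61.2% (WT) and 64.2% (KO) for iTreg against nTreg. Lengths are from GENCODE M21, promoters from RefSeq (GRCm38.p6), with entries for 6 members used. Figures were drawn with matplotlib 3.10.9.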

Additional observations from a re-analysis of the deposited data

Results flagged for a closer look

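Smad3 was the 1 member with all 3 nTreg pairs lower and all 3 iTreg pairs higher with the KO label. Fitted effects in nTreg and iTreg also differed in sign for Smurf1 (-0.17 and 0.04), Ski (-0.07 and 0.02) and Tgfbr1 (0.04 and -0.06). The iTreg pairs of these genes had mixed signs. For Smad3 the difference of both effects was 0.55 on the log2 scale (SE 0.15, adjusted p = 0.233 by edgeR) and did not pass. It passed with the replicate block (adjusted p = 0.028) and with DESeq2 (0.59, adjusted p = 0.034). Over the 23 alternatives it lay between 0.46 and 0.62, with adjusted p from 0.028 to 1.0. Without both nTreg libraries numbered 2, where macrophage transcripts were highest, it was 0.57 (adjusted p = 0.769), and without iTreg KO number 2 it was 0.55 (adjusted p = 0.222).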

How the results depend on the processing

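With the WT label, 8 members passed between iTreg and nTreg in all settings except those without nTreg WT number 1, iTreg WT number 1 (7 each, Skil lost) or the 3 libraries with Xist (6, Tgfbr1 and Skil lost). With the KO label the count was 7 to 9. The replicate number shared across cell types as a block gave 8 (WT) and 9 (KO). For the KO label 0 members passed in nTreg except 1 (Tgfbr2) when the compared libraries were fitted alone, 0 in iTreg except 1 (Smad3) with the replicate block, and 0 for the difference except 1 (Smad3) with DESeq2 and 1 (Smad3) with the replicate block. Leaving out any 1 library gave 0 members in each of these 3 KO comparisons. The block changed no other call of a member, and no called member reversed. Counts over all genes moved more: in nTreg 304 became 496 (DESeq2), 1068 (limma voom), 1083 (block), 1142 (compared libraries alone), 103 without both libraries numbered 2 and 71 without those with Xist, and 167 to 432 with 1 library left out. In iTreg 22 became 99 (DESeq2), 114 (block), 0 (compared libraries alone, and without those with Xist), 75 without the pair of iTreg libraries numbered 3, 7 without the nTreg pair numbered 2, and 0 to 64 with 1 left out. For the difference 35 became 140, 103, 217 (DESeq2, voom, block), 1 without both nTreg libraries numbered 2, 1 without those with Xist, and 1 to 58 with 1 left out. Of the accessory receptors, 3 called between iTreg and nTreg with the KO label became 5 with the block shared across cell types. They became 1 with the compared libraries alone. The cause of these shifts was not tested. The median of all genes shifted by less than 0.1 under either other scaling. Of simulated 1.5-fold changes, 16.4% to 23.9% were recovered between 2 groups, so changes of this size can go uncalled.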
